A study of Mus musculus with 2 samples.

Results

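The genes described here are 6 factors that mark the formative and primed states of pluripotency, 5 transcription factor genes (Otx2, Pou3f1, Zic2, Zic5 and Sall2) and 1 growth factor gene (Fgf5). They were taken by symbol, and each matched 1 Ensembl identifier among the 43629 rows of both deposited count tables. The cells were E14, a mouse embryonic stem cell line of the 129/Ola background, wild type, with blastocyst given as the tissue of origin, and no treatment or medium is named in the sources used here. Polyadenylated RNA was sequenced in 1 library with the age label P33 and 1 with the age label P42, which together form the only group, called a duplicate by the submitters. The labels do not say whether the libraries came from separate cultures or what the letter P stands for. The libraries held 40139219 and 39657578 counts.

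Naive embryonic stem cells resemble the epiblast of the blastocyst before implantation. On leaving that state they pass through a formative phase, comparable to the epiblast just after implantation, and can then be held as primed cells that are closer to gastrulation. Otx2 is a homeodomain factor that moves with Oct4 to a new set of enhancers in this transition, Pou3f1 (also called Oct6) is a POU domain factor of early epiblast and neural cells, and Fgf5 is a secreted ligand widely used as the marker of the post-implantation epiblast. Zic2 and Zic5 encode zinc finger factors with later roles in neural development, and Sall2 encodes a member of the Spalt-like zinc finger family.

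All but 1 of the 6 genes were expressed at a low to moderate, measurable level in both libraries, and Fgf5 was close to the counting limit. Counts were divided by library size, corrected by edgeR's trimmed mean of M values (TMM), to give CPM. Levels between genes are compared as RPKM, here the CPM divided by the length of the merged exons in kilobases, because longer transcripts collect more reads. Otx2 had 5.33 RPKM in the P33 library and 7.70 RPKM in the P42 library, the highest level of the 6 in either library. Zic5 followed with 3.96 and 3.98 RPKM. Zic2 had 2.33 and 2.29 RPKM, so that both Zic genes stood at nearly the same level in each library. Pou3f1 stood at 1.10 RPKM in P33 and 0.578 RPKM in P42. For Sall2 the order was the other way, with 0.476 RPKM in P33 and 0.863 RPKM in P42. Fgf5 had 0.133 and 0.0106 RPKM. In RNA from a whole culture, fewer cells that express a gene and less RNA per cell cannot be told apart.

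The mean levels were 6.52 ± 1.68 RPKM for Otx2, 3.97 ± 0.0117 for Zic5, 2.31 ± 0.0295 for Zic2, 0.841 ± 0.371 for Pou3f1, 0.669 ± 0.273 for Sall2 and 0.0717 ± 0.0864 for Fgf5 (SD, n = 2). The SDs of the Zic genes lie under their counting error and are no measure of precision. Otx2, Zic5 and Zic2 kept their rank in both libraries and their ranges did not overlap, with steps of 1.64-fold and 1.72-fold between them. The size of these steps depends on the length used: divided by the longest annotated transcript, the mean levels were 10.6 RPKM for Otx2, 4.07 for Zic5 and 2.73 for Zic2. Pou3f1 and Sall2 did not differ beyond their spread, since their ranges overlapped and each was the higher one in 1 library. Fgf5 was the lowest in both. Against all 21551 protein-coding genes, Otx2 lay above 70.9% in P33 and 76.1% in P42, Zic5 above 66.5% and 67.3%, and Zic2 above 60.0% and 61.1%. Pou3f1 lay above 52.6% and 49.4%, Sall2 above 46.2% and 52.2%, and Fgf5 above 38.1% and 27.9%. Over the 12186 protein-coding genes with a mean of 1 CPM or more, the median was 5.70 RPKM. The mean of Otx2 was above it and those of the other members were below.

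**Figure D1:**
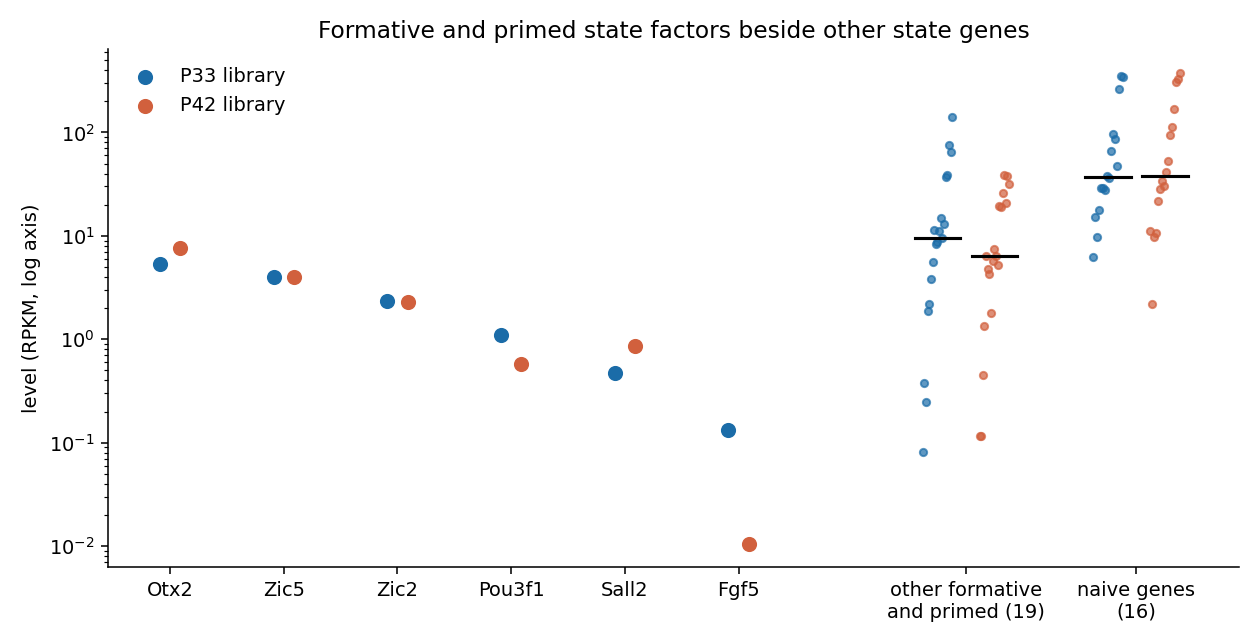
Level in RPKM on a log axis for each of the 6 factors, 19 other formative and primed genes and 16 naive genes, in the P33 library (blue) and the P42 library (orange); black bars are list medians. Otx2 leads the 6 factors at 5.33 and 7.70 RPKM, below the naive medians of 37.0 and 37.8 RPKM, and Fgf5 is lowest at 0.133 and 0.0106 RPKM.

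In the same libraries the genes of the naive state stood far higher by their list median. The median over 16 naive genes was 37.0 RPKM in P33 and 37.8 RPKM in P42, against 1.72 and 1.58 RPKM over the 6 factors. By merged exon length, all 16 naive genes were above Otx2 in P33. In P42 the exception was Dppa3, a germline and naive marker gene that stood at 2.20 RPKM there and was also below Zic5 and Zic2. This order depends on the length used. Divided by the longest annotated transcript, the mean of Otx2 was 10.6 RPKM. Prdm14, a naive gene with 1 annotated transcript, had a mean of 8.73 RPKM by either length. By CPM, the most abundant naive genes were Tfcp2l1, Zfp42 and Nanog, with means of 933, 677 and 635. Among 19 other genes of the formative and primed states the median was 9.61 RPKM in P33 and 6.32 RPKM in P42. Otx2 had 13 of these 19 above it in P33 and 7 in P42, Zic2 had 14 in both, and Fgf5 had 18 and 19, by merged exon length.

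Promoter sequences are shown for the members with a RefSeq window, to set the sequence upstream of the most and the least abundant of them side by side. A window was found for 4 of the 6 genes (Otx2, Fgf5, Zic5 and Sall2) among 32851 windows of 27025 genes. Each sequence is the 250 bases before a RefSeq start site on GRCm38.p6, on the strand of the gene, 5′ to 3′. Otx2 and Sall2 have several start sites, and the one with the most GENCODE transcript starts within 50 bases is shown. For Sall2 this start, at position 52316323, lies inside the annotated gene and has 1 such transcript start. Capitals mark matches, on either strand, to the TATA box TATAAA, the CCAAT box CCAAT, the GC box GGGCGG, the OTX site TAATCC, the E-box CACGTG or the octamer ATGCAAAT. The Otx2 window is at chr14:48667509-48667758 on the minus strand, that of Zic5 at chr14:122465659-122465908 on the minus strand, that of Sall2 at chr14:52316324-52316573 on the minus strand and that of Fgf5 at chr5:98253934-98254183 on the plus strand.
Otx2: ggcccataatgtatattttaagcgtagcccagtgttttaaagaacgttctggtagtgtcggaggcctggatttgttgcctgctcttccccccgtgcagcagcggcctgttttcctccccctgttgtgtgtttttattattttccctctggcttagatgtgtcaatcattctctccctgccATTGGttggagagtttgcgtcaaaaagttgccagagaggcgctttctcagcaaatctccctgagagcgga
Zic5: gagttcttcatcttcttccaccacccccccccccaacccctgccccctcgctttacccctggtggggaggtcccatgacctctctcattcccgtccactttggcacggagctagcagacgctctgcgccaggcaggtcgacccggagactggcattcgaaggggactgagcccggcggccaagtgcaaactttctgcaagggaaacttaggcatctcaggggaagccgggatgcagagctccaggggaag
Sall2: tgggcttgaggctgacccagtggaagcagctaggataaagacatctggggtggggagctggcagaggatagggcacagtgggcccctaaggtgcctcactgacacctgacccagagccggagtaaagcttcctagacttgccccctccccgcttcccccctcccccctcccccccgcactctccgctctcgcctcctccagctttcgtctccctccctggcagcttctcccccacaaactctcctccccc
Fgf5: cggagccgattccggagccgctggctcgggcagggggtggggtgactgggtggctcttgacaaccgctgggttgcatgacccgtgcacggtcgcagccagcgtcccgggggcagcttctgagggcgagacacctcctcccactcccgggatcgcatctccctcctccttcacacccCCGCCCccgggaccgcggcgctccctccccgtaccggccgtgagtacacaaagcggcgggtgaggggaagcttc

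The window of Fgf5, the least abundant of the 6, was the densest in CpG of these 4, with 24 CpG and a GC content of 70.8%, and 88.0% of all windows held fewer. Zic5 had 11 CpG, Otx2 8 and Sall2 6, the last equal to the median of all windows. In the sequences above, Otx2 holds 1 CCAAT box in the reverse orientation (ATTGG) at positions −70 to −66, counted back from the start site, and 33.8% of all windows hold this motif. Fgf5 holds 1 GC box in the reverse orientation (CCGCCC) at −74 to −69, a motif found in 32.7% of windows. The Zic5 and Sall2 windows shown hold no match. The other Sall2 window, before the start site at position 52328670 near the 5′ end of the gene, holds 0 CpG, a TATA box and a CCAAT box. An Otx2 window not shown, before the start site at position 48667644, also holds a TATA box, at −192 to −187. This motif is in 12.4% of all windows. The OTX site, in 6.25% of all windows, had its match among the members in a further Otx2 window, before the start site at position 48665109 of chromosome 14. A match is a description of the letters and does not show that a factor binds.

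The question that the P42 and P33 labels pose is how far the 2 libraries differ, and no member differed by 2-fold with enough counts. With 1 library per age label there is no replicate check and no p-value. The log2 ratio of P42 over P33 was computed from TMM-scaled counts with a prior count of 0.5, with an exact Clopper-Pearson interval at 95% that covers counting error only. A gene was called higher or lower at a mean of 1 CPM or more, a difference of at least 2-fold and an interval that excludes equality. Of 13737 genes with a mean of 1 CPM or more, 5.07% were called higher in P42 and 9.54% lower. With scaling by total counts in place of TMM every ratio is lower by 0.14, and the share of lower genes among those called is 78.1% in place of 65.3%. Of the members 5 reached the minimum, and 0 were called higher and 0 lower. Their median log2 ratio, that of Zic5, was 0.01, against 0.04 for all 13737 genes.

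Otx2 (ENSMUSG00000021848, chr14:48657677-48673819, minus strand, mm10) had 948 counts in P33 and 1228 in P42. This was 22.5 CPM (21.1 to 24.0, 95% counting interval) and 32.5 CPM (30.7 to 34.4). P42 was the higher library by a log2 ratio of 0.53 (0.41 to 0.66), or 1.45-fold. Among all genes with a mean of 1 CPM or more, 39.2% differed more between the libraries, in either direction. The annotation gives Otx2 11 transcripts over 7 merged exon blocks, which the counts do not separate.

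Sall2 (ENSMUSG00000049532, chr14:52311172-52328762, minus strand) had 109 counts in P33 and 177 in P42, or 2.59 CPM (2.12 to 3.12) and 4.69 CPM (4.02 to 5.43). It was the member with the highest ratio, 0.86 (0.51 to 1.22), and 19.7% of genes differed more. The difference, 1.81-fold, was just under the limit of 2-fold.

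Zic2 and Zic5 lie next to each other on chromosome 14 and are transcribed away from each other. Zic5 (ENSMUSG00000041703, chr14:122456795-122465677, minus strand) had 817 counts in P33 and 735 in P42, or 19.4 CPM (18.1 to 20.8) and 19.5 CPM (18.1 to 20.9). Zic2 (ENSMUSG00000061524, chr14:122475435-122479852, plus strand) had 283 and 249 counts, or 6.71 CPM (5.95 to 7.54) and 6.59 CPM (5.80 to 7.47). A gap of 9.76 kb separates the annotated genes. The log2 ratio was 0.01 (−0.14 to 0.15) for Zic5, a sign that turns with DESeq2 size factors, total counts or removal of the GC trend, and −0.03 (−0.28 to 0.22) for Zic2, a sign that turns with removal of the GC trend. Both intervals hold equality, and 99.2% and 96.6% of genes differed more between the libraries than Zic5 and Zic2.

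Pou3f1 (ENSMUSG00000090125, chr4:124656807-124660655, plus strand) is annotated with 1 exon and 1 transcript. It had 179 counts in P33 and 84 in P42, or 4.25 CPM (3.65 to 4.92) and 2.22 CPM (1.77 to 2.75). P33 was the higher library, with a log2 ratio of −0.93 (−1.32 to −0.55), a difference of 1.90-fold, and 16.8% of genes differed more. With total counts the ratio is −1.07, past the limit of 2-fold. With the trend on GC content and exon length removed it is −0.29 (−0.69 to 0.09), an interval that holds equality.

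Fgf5 (ENSMUSG00000029337, chr5:98254184-98277030, plus strand) had 14 counts in P33 and 1 count in P42. This was 0.332 CPM (0.182 to 0.557) and 0.0265 CPM (0.00067 to 0.148), below the minimum of 1 CPM in both. The log2 ratio of −3.11 has a counting interval from −9.05 to −0.93, so its size is hardly known at this depth. With the minimum of 1 CPM no call was made for it.

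**Figure D2:**
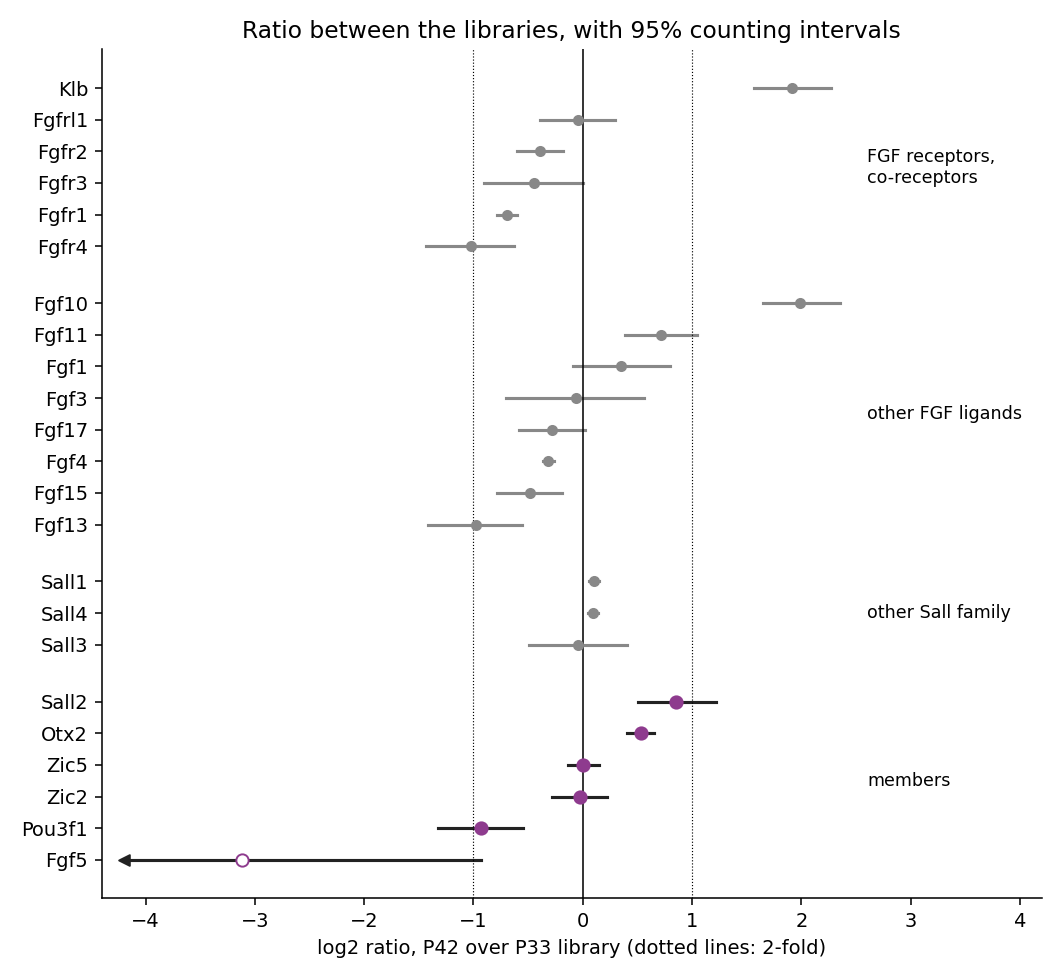
Log2 ratio of the P42 over the P33 library for the 6 members (purple) and for listed genes of the Sall, FGF (labelled FGF ligands) and FGF receptor families with a mean of 1 CPM or more (grey), with 95% counting intervals; dotted lines mark 2-fold, the open point is below 1 CPM and the arrow marks an interval that goes on to −9.05. The 5 members with a filled point run from −0.93 for Pou3f1 to 0.86 for Sall2, all inside the dotted lines.

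The ratio between the libraries varied with GC content, and 2 of the members have GC contents near the upper end. Over 10 equal bins of genes by GC content of the longest transcript, the median log2 ratio ran from 0.33 in the lowest to −0.48 in the highest. Pou3f1 has a GC content of 63.9% and Zic2 one of 59.9%, above 99.7% and 96.3% of the genes compared, and both lie in the highest bin. There Zic2, at −0.03, was above the median and Pou3f1, at −0.93, below it. Otx2, with 46.8% GC, lies in a bin with a median of 0.21, Zic5 (49.8%) in one with 0.05, and Sall2 (53.2%) in one with −0.06. With this trend and that on exon length removed, the ratio was −0.29 for Pou3f1, 0.40 (0.15 to 0.65) for Zic2, 0.30 for Otx2 and −0.07 for Zic5. For Sall2 it was 0.997, still just under the limit of 2-fold. The interval of Sall2 (0.65 to 1.36) excludes equality, as it did before the removal. After the removal that of Zic2 excludes equality as well, while that of Pou3f1 holds it. The part of base composition in these differences was not tested beyond this removal.

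**Figure D3:**
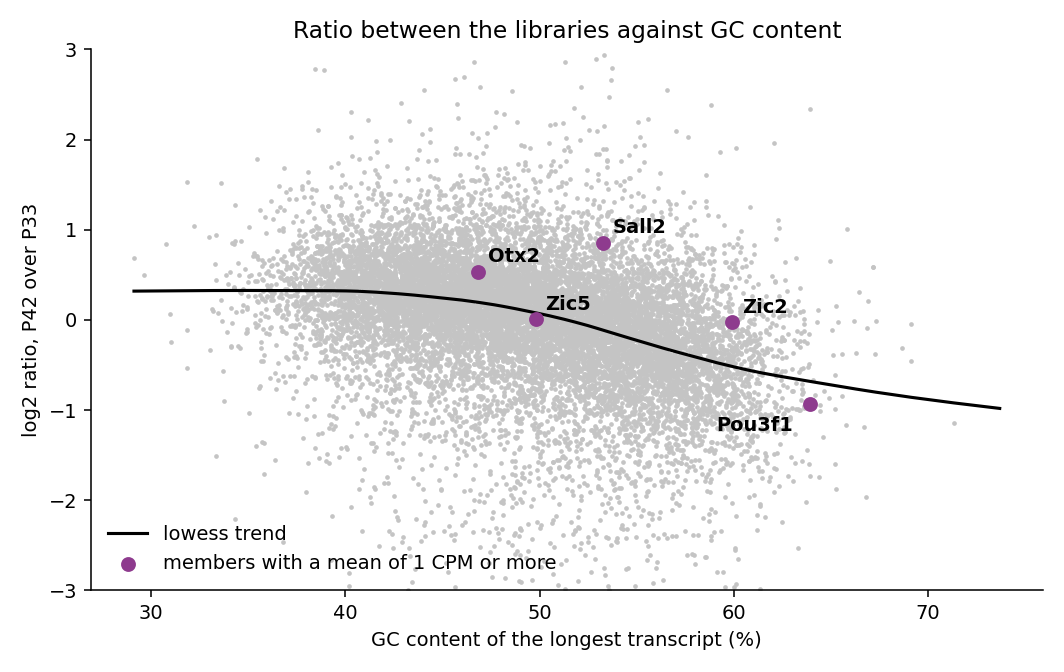
Log2 ratio of P42 over P33 against the GC content of the longest transcript, for genes with a mean of 1 CPM or more (grey), with their lowess trend (black line) and 5 members (purple); 100 genes with a ratio beyond 3 in either direction are outside the axis. Pou3f1 at 63.9% GC lies near the falling end of the trend, while Zic2 at 59.9% GC lies above it.

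Of the 6 genes, 4 lie on chromosome 14. The other 460 genes of that chromosome with a mean of 1 CPM or more had a median log2 ratio of 0.20, with 292 above 0, against 0.02 over 937 genes on chromosome 4 and −0.01 over 866 on chromosome 5, where the other members lie. Otx2 and Sall2 were above this median and Zic2 and Zic5 below it. Mettl3, an RNA methyltransferase gene 6.04 kb from Sall2, had a ratio of 0.41 (0.32 to 0.51). On either side of Otx2, at 133 and 330.3 kb, the nearest protein-coding genes were Tmem260 at −0.91 (−1.26 to −0.56) and Exoc5, an exocyst subunit gene, at 0.50 (0.42 to 0.57). Utp11, a gene of ribosome assembly 17.5 kb from Pou3f1, was at 0.52 (0.44 to 0.60), opposite in sign to Pou3f1. The other nearest protein-coding genes of the members had at most 5 counts in a library, except Zic2 and Zic5 themselves.

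In the families of the transcription factors, Otx2 and Pou3f1 were the main genes and Sall2 a minor one. Otx2 held 99.7% of the summed RPKM of Otx1, Otx2 and Crx in P33 and 99.3% in P42, with 4 and 10 counts for Otx1 and 0 and 1 for Crx. Pou3f1 held 96.4% and 88.2% of the summed RPKM of the 4 POU class 3 genes, beside Pou3f2 with 3 and 0 counts, Pou3f3 with 4 and 14 and Pou3f4 with 2 and 3. Zic5 was above Zic2 in both libraries, while the brain-expressed genes Zic1 and Zic4 were at the counting limit, Zic1 with 1 and 3 counts and Zic4 with 0 in either library.

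Sall2 was a minor member of the Spalt-like family. Sall1, at 37.1 and 39.8 RPKM, and Sall4, a pluripotency factor gene, at 32.8 and 35.1 RPKM, held nearly all of its summed level. Sall2 held 0.673% of it in P33 and 1.13% in P42, and Sall3, at 0.292 and 0.283 RPKM, held less. The ratios of Sall1 and Sall4 were both 0.10 (0.06 to 0.15 and 0.05 to 0.14), below 0 with total counts, and that of Sall3 was −0.04 (−0.49 to 0.41). All are below the 0.86 of Sall2, whose counting interval starts at 0.51. Each of these ratios is a difference between 2 libraries, so the contrast within the family has no replicate check.

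**Figure D4:**
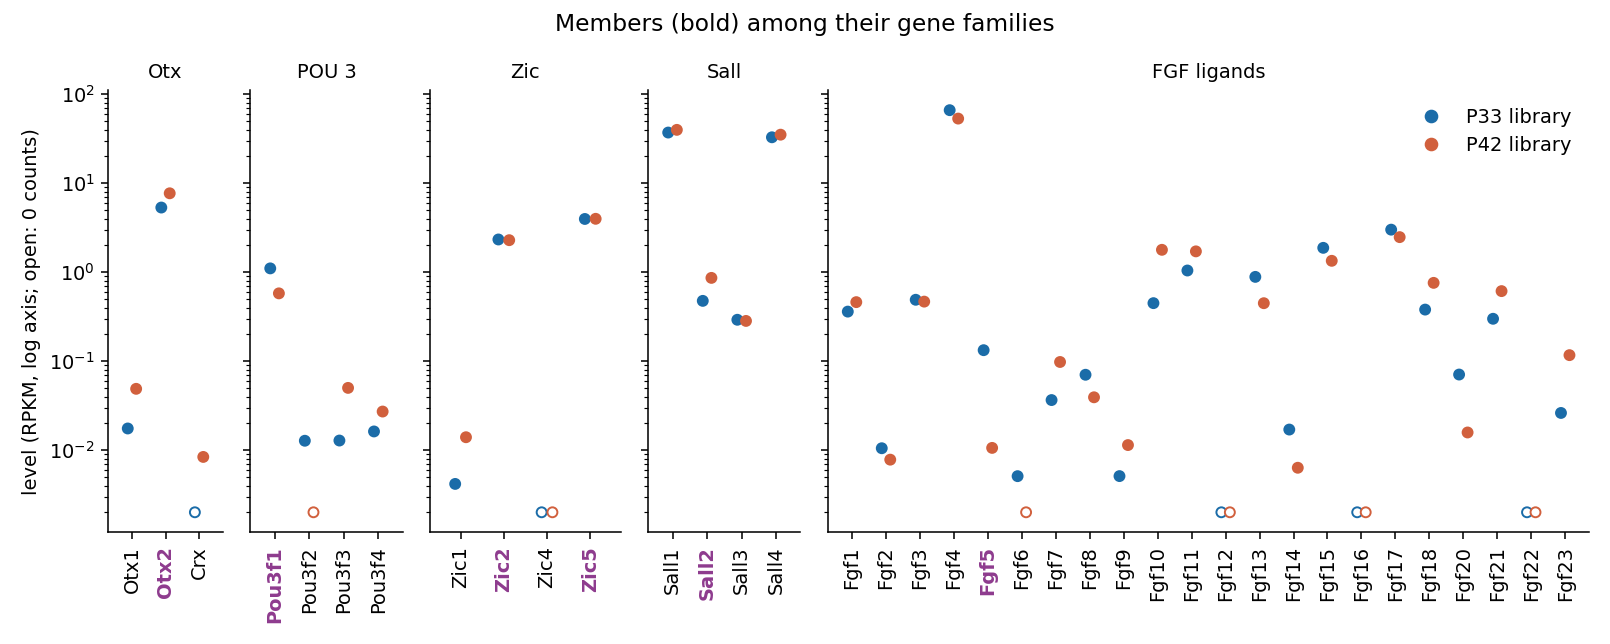
Level in RPKM on a log axis for the listed genes of the Otx, POU class 3, Zic, Sall and FGF (labelled FGF ligands) families in the P33 (blue) and P42 (orange) libraries; open points at the bottom edge had 0 counts. Otx2 and Pou3f1 lead their families and Zic2 and Zic5 lie above Zic1 and Zic4, while Sall2 lies below Sall1 and Sall4, and Fgf5 lies far below Fgf4.

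Fgf5 lay in the middle of the 22 listed FGF genes by its mean of 0.0717 RPKM. Fgf5 and Fgf23 are the central genes by mean, and so they set the median of 0.0716 RPKM. The mean of Fgf5 rests on 14 counts in P33 beside 1 in P42, and in P42 most of the listed FGF genes lay above it. Of the 22 FGF genes 8 reached 1 CPM in both libraries. Fgf4, the ligand that naive cells make and that drives their exit through ERK signalling, stood at 66.2 RPKM in P33 and 53.3 RPKM in P42. It held 87.8% and 83.7% of the summed RPKM of the 22 FGF genes. Its log2 ratio was −0.31 (−0.36 to −0.27). Fgf17 followed at 3.01 and 2.48 RPKM, Fgf15 at 1.88 and 1.34, Fgf11 at 1.04 and 1.71, Fgf10 at 0.449 and 1.78 and Fgf13 at 0.885 and 0.448. Fgf3 stood at 0.490 and 0.467 RPKM and Fgf1 at 0.360 and 0.460 RPKM. Fgf10 was called higher in P42, at 1.99 (1.64 to 2.35), and no FGF gene was called lower. With 8 FGF genes above the minimum, 1 call says little beside the 5.07% called higher and 9.54% called lower over all genes. Fgf12, Fgf16 and Fgf22 had 0 counts in both libraries.

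FGF receptor genes were present at low to moderate levels. Fgfr1 was the main one at 6.61 RPKM in P33 and 4.09 RPKM in P42, with Fgfr2 at 1.06 and 0.805 RPKM, Fgfr4 at 1.17 and 0.576, Fgfr3 at 0.358 and 0.263 and the decoy-like receptor gene Fgfrl1 at 1.34 and 1.29. Among the 6 of 7 receptor and co-receptor genes above the minimum, Klb, the beta-Klotho co-receptor gene, was called higher at 1.91 (1.57 to 2.27) and Fgfr4 lower at −1.02 (−1.43 to −0.63). Beside the 5.07% called higher and 9.54% called lower over all genes, 1 call in each direction among 6 genes says little about the list. With the GC and length trend removed Fgfr4 was at −0.62, inside the limit of 2-fold. The median over the 6 was −0.42.

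Beyond the 6 factors, calls among formative and primed genes went in both directions. Of the 19 in the list 18 reached the minimum, with 2 called higher and 5 lower and a median log2 ratio of −0.49. The shares over all 13737 genes were 5.07% higher and 9.54% lower. The higher ones were Sox4, at 1.53 (1.37 to 1.69), and Tcf15, an early exit factor gene, at 1.01 (0.83 to 1.19), which with total counts lies under 2-fold. The lower ones were Grhl2, an epithelial factor gene, at −2.67 (−2.80 to −2.55), the methyltransferase cofactor gene Dnmt3l at −2.13, the de novo methyltransferase gene Dnmt3b at −1.88, the N-cadherin gene Cdh2 at −1.70 (−2.30 to −1.16) and the ligand gene Nodal at −1.51. Cdh2 was below 1 CPM in P42 and passed the minimum through P33. The most abundant of the list per length were Dnmt3l at 85.7 RPKM, Utf1 at 50.8, Dnmt3b at 48.2 and Etv4 at 38.7 as the mean of both libraries, each above the 6.52 RPKM of Otx2. The ratio of Utf1 was −0.77 (−0.85 to −0.68). Of the 16 naive genes Klf4 was called higher, at 1.83, and Dppa3 lower, at −2.80, with a median of −0.02 over the list. With 1 call in each direction, the naive list was near the shares of all genes.

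Several members are also expressed in early neural cells and Otx2 in early endoderm, so markers of other cell types were read in the same libraries. Of 15 neuroectoderm markers 5 were at 1 CPM or more in each library, led by Tubb3, Nes and Sox11. All 15 summed to 70.9 CPM in P33 against 79.9 CPM in P42. The forebrain and eye field genes Six3 and Rax and the proneural gene Neurog2 had 0 counts in both, and Pax6 had 13 and 11. Sox1, with 47 and 62 counts, and Hesx1, with 33 and 48, had a mean above 1 CPM. None of the 6 markers above the minimum was called, and their median log2 ratio was 0.28. Since 5.07% of all genes compared were called higher and 9.54% lower, no call among 6 genes is near those shares. Mesendoderm markers summed to 8.02 and 10.04 CPM, with 1 of 12 at 1 CPM in both libraries (Eomes) and Cer1 at 0 counts. The ratio of Eomes was 0.98 (0.68 to 1.30), just under the limit of 2-fold. Mixl1, a mesendoderm homeobox gene, had 18 and 48 counts, and Kdr, a receptor gene of the vascular lineage, was called lower at −1.62 but was at 0.900 CPM in P42 and passed the minimum through P33.

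Primitive endoderm markers had a median log2 ratio of 1.37, the highest of the 4 marker lists. Their summed level was 75.7 CPM in P33 against 179.5 CPM in P42, and of 12 markers 7 reached 1 CPM in both libraries. Of the 9 above the minimum 7 were called higher, with Cubn at 1.28, Dab2 at 1.91, Gata4 at 1.42, Gata6 at 1.37, Pdgfra at 1.37, Sox7 at 1.70 and Sox17 at 2.11. Over all 13737 genes 5.07% were called higher and 9.54% lower. Hnf4a was called lower at −3.10, and Afp had 0 counts in both. Sox17 passed the minimum through P42 alone. Otx2 was higher in the same library by 0.53, and whether primitive endoderm cells had a part in that value was not tested. Fibroblast markers summed to 55.6 and 41.6 CPM. Of 13 such genes 5 were at 1 CPM or more in each library, led by Thy1, Col5a1 and Pdgfrb. None was called, and Dcn, Lum, Postn, Twist2 and Prrx1 had 0 counts in both.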

How the data were processed

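Trizol was used to extract the RNA and the Illumina TruSeq RNA kit to build the libraries, per the labels, which name a reverse-stranded protocol. The authors deposited raw read counts per Ensembl gene, made with STAR 2.4.2a and featureCounts 1.4.5-p1 on mm10, per the submitters' processing notes. Not given in the sources used here are the strand setting, the annotation release and how multi-mapped reads were counted. GENCODE M21 (GRCm38, the assembly also called mm10) gave names and lengths for 42548 of 43629 identifiers. The rest held 0.155% (P33) and 0.174% (P42) of the counts.

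Library sizes were scaled by TMM in edgeR 4.0.16 (R 4.3.3), with factors of 1.05 and 0.952, so that 1 CPM stood for 42.2 and 37.8 counts. Intervals treat counts as independent, which PCR copies are not. The computation of the ratio was tested on simulated data. The GC and length trend was fitted with lowess (span 0.3, statsmodels 0.14.6) and subtracted. Other settings tried were size factors from DESeq2 1.42.0, total counts, a prior count of 2, other thresholds, the longest transcript as length and each library alone. Python 3.11.15, numpy 2.4.6, pandas 2.3.3 and scipy 1.17.1 were used.

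The members and gene lists were chosen with earlier results of these data known. The rule named all members, family members at 1 CPM or more in either library, called genes and the 3 or 4 most abundant genes of each other list, the nearest and overlapping genes, and the closest gene in level. Genes with few counts and genes at 0 were also named after their values were seen. Some genes of the lists are not reported here.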

Additional observations from a re-analysis of the deposited data

How the results depend on the processing

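The level and the ratio of each member and the number of genes called were recomputed under 83 combinations of result and setting. With total counts the log2 ratio of Pou3f1 was −1.07, past 2-fold, while removal of the trend on GC content and length left −0.29 (−0.69 to 0.09). The ratios of Otx2, Sall2 and Fgf5 kept their sign under DESeq2 size factors, total counts, a prior count of 2 and the trend removal. That of Zic5 was −0.14 with total counts, −0.00049 with DESeq2 size factors and −0.074 after removal of the GC and length trend, after which Zic2 was at 0.40. At a limit of 1.5-fold Pou3f1, at −0.93, was called lower and Sall2, at 0.86, higher. Without the minimum of 1 CPM, an alternative chosen after seeing the data, Fgf5, at −3.11, was called lower. The genes called higher and lower in P42 were 2207 and 2600 at 1.5-fold, 147 and 525 at 3-fold, 1080 and 2348 without the CPM minimum and 425 and 665 at a mean of 5 CPM, against 697 and 1310. Divided by the longest annotated transcript, the levels were 10.6 RPKM for Otx2, 2.73 for Zic2 and 4.07 for Zic5. Leaving out either library leaves the level of the other and no ratio, and with 2 libraries each lies within 1 SD of their mean by construction, so this says nothing about stability. Counts limit Fgf5 most, followed by Pou3f1 and Sall2. No paired analysis was possible because the series holds 1 group.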

Other observations

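Among 102 other genes of the lists with counts in both libraries, the gene closest to each member was found by the Euclidean distance of log2 RPKM over the 2 libraries. For Pou3f1 it was Fgfr4, at a distance of 0.09, with 175 and 77 counts beside the 179 and 84 of Pou3f1. It was Nes for Zic2 (0.26), Lin28b for Zic5 (0.26), Fgf18 for Sall2 (0.38), Prdm14 for Otx2 (0.59) and Evx1 for Fgf5 (0.86). With 2 libraries this likeness says only that 2 values are close.

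Genes on the opposite strand overlap 2 of the members. Otx2os1, a long noncoding RNA gene across the 5′ part of Otx2, had 3 counts in P33 and 1 in P42. Gm2164, annotated as antisense to Pou3f1, had 8 and 0 counts.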
